A study of Mus musculus with 12 samples.

Results

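Among the 11614 genes measured by RNA sequencing in mouse kidney cortex, 77 encode extracellular matrix, basement membrane, the receptors that hold cells to them, and a few related proteins. They were picked by symbol, with no cut on a measured value. The list held every collagen, laminin and integrin chain in the table, with Nid1, Nid2, Fn1, Sparc, Postn, Vim, Acta2, Tagln, Timp2 and Timp3. It was drawn up with earlier results of these data known. The members fall into 8 roles: 11 fibrillar collagens, 6 type IV collagens, 17 other collagens, 13 laminins and nidogens, 15 integrin alpha chains, 7 integrin beta chains, 6 glycoproteins and cytoskeletal proteins, and 2 inhibitors of matrix proteases. Every gene in the table, members included, reached 100 scaled reads in at least 1 library, and chains of these families that are not in the table were not analysed here.

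Tubules and glomeruli rest on basement membranes built from networks of laminin and type IV collagen, which nidogens link to each other. The space between tubules holds fibrillar collagens, fibronectin and other matrix made largely by fibroblasts and pericytes, and this matrix accumulates in kidney fibrosis. Integrins are paired alpha and beta chains in the cell membrane that bind these proteins, and some of them also release active TGF-beta, a growth factor that drives matrix production.

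The study compared kidney cortex of NASH and control mice at each of 2 times. NASH (non-alcoholic steatohepatitis, a fatty and inflamed liver) was induced in C57BL/6J mice by CCl4 (carbon tetrachloride, which is toxic to the liver) on top of a Western diet for 12 weeks (6 mice) or 24 weeks (10 mice). Control C57BL/6J mice had a normal diet with corn oil for 12 weeks (6 mice) or 24 weeks (8 mice). Each group held as many males as females and gave 3 libraries, numbered 1 to 3. A NASH effect here means diet, CCl4 and liver disease together, which cannot be told apart in this design. The labels do not give the age at the start, the sex behind a library, the hour of dissection, or whether a library came from 1 animal or a pool, so each p measures the spread between these libraries.

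Col4a4, Itgb6 and Itgb8 were among the members that differed with NASH, and the DNA at their starts is shown here, with that of another type IV collagen pair for comparison. Col4a3 and Col4a4 lie head to head on mouse chromosome 1, and so do Col4a1 and Col4a2 on chromosome 8. In RefSeq's GRCm38.p6 (the build mm10), 71 bases part the starts of Col4a4 and Col4a3. They stand in capitals in the first sequence (chr1:82586820-82586950, read on the minus strand, the strand of Col4a4), between 30 bases of the start of Col4a3 and 30 of the start of Col4a4 in lower case. The first exons of Col4a1 and Col4a2 overlap by 22 bases, all in capitals, which make up the second sequence (chr8:11312805-11312826, minus strand, the strand of Col4a1). The other 2 sequences are the 250 bases before the starts of the integrin genes Itgb6 (chr2:60673694-60673943) and Itgb8 (chr12:119238277-119238526), both on the minus strand, where capitals mark motif matches.
Col4a3 to Col4a4: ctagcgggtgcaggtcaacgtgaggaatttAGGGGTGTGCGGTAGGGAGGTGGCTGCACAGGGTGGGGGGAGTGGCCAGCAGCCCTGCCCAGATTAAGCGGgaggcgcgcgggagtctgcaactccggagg
Col4a1 and Col4a2: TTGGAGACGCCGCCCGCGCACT
Itgb6: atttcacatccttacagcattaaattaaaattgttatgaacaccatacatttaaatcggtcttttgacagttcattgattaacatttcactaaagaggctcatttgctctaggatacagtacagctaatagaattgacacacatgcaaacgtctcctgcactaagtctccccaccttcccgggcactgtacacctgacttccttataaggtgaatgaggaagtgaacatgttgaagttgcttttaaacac
Itgb8: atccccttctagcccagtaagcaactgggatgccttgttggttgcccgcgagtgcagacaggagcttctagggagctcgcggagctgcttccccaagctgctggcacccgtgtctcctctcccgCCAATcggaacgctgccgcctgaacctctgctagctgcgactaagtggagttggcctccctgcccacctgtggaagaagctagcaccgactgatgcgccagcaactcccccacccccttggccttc

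The stretch before Itgb6 had a GC content of 38.0% and no match to the motifs searched. The stretch before Itgb8 had a GC content of 62.4% and held 1 CCAAT box. Motifs were searched on both strands in the 250 bases before each start, for the 56 members with such a window and for 32851 windows over all genes, and no motif's letters contain another's. The E-box CACGTG, which clock factors bind, was in 0 of the 56 members and 6.02% of all windows. CCAAT was in 18 members and 33.8% of all windows, and the GC box GGGCGG in 29 members and 32.7% of all windows. TATAAA was in 5 members and 12.4% of all windows, and the SMAD box GTCTAGAC in 0 members and 0.167% of all windows. A member with more than 1 window counted if any of them held the motif, while the background counts single windows. The member and background figures are thus not in like units. A match is a run of letters and not a binding site.

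The deposited values are on a log2 scale and fit read counts, or geometric means of 2 read counts, times 1 factor per library. They are called log2 scaled reads here. Estimated from the steps between values, depth at 12 weeks was 12447812, 7173807 and 8230469 reads in NASH replicates 1, 2 and 3, and 12673417, 13737948 and 13055856 reads in the controls. At 24 weeks it was 8279767 to 12297055 reads in NASH and 10065034 to 14051364 reads in controls. Replicate 1 stood apart in all 4 groups: Xist, the RNA of the inactive X chromosome, was at log2 10.6 to 11.5 in replicate 1 and at 2.97 to 4.86 in replicates 2 and 3. All 18 same-numbered pairs of libraries deviated together from their group means (correlations from 0.19 to 0.74), so calls are given without and with the replicate number as a block. Pairs of replicate 2 with replicate 3 of another group did so too (0.19 to 0.64). These correlations therefore do not show that replicates 2 and 3 are matched by number across groups. Proximal tubule markers, which define cortex, were high in every library (5 of 5 measured, none below log2 11.8), and of 4 T and B cell markers 0 were in the table.

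Matrix and receptor genes spanned a wide range of levels. Per kb of transcript, Timp3, a protease inhibitor that binds to the matrix, was highest at a mean of 8434 scaled reads over the 12 libraries (SD 1354). Itgb1, the beta chain shared by most matrix receptors, followed at 1018 (SD 123) and Sparc, a collagen-binding glycoprotein, at 944 (SD 287). Their order within a library varied, since Sparc ranged from 472 to 1389 scaled reads per kb. Itgb5, which pairs with the alpha chain Itgav, averaged 575, Col18a1, a basement membrane collagen, 477, and Col4a1 456 scaled reads per kb. Among type IV collagens, Col4a1, Col4a2, Col4a3 and Col4a4 averaged 278 to 456 scaled reads per kb, against 91.1 for Col4a5 and 17.9 for Col4a6. Of the interstitial matrix genes, per kb, Col1a2 averaged 136, Col3a1 86.5 and Fn1 48.5 scaled reads. Itga4, the chain of a leukocyte integrin, was lowest at 8.08 scaled reads per kb. Ranges overlapped between most neighbours in this order. Together the members held 0.588% to 0.731% of the scaled total in NASH and 0.690% to 0.824% in controls at 12 weeks. These ranges overlapped, replicate 1 had the highest share in each group, and Timp3 weighs most in the share.

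**Figure D1:**
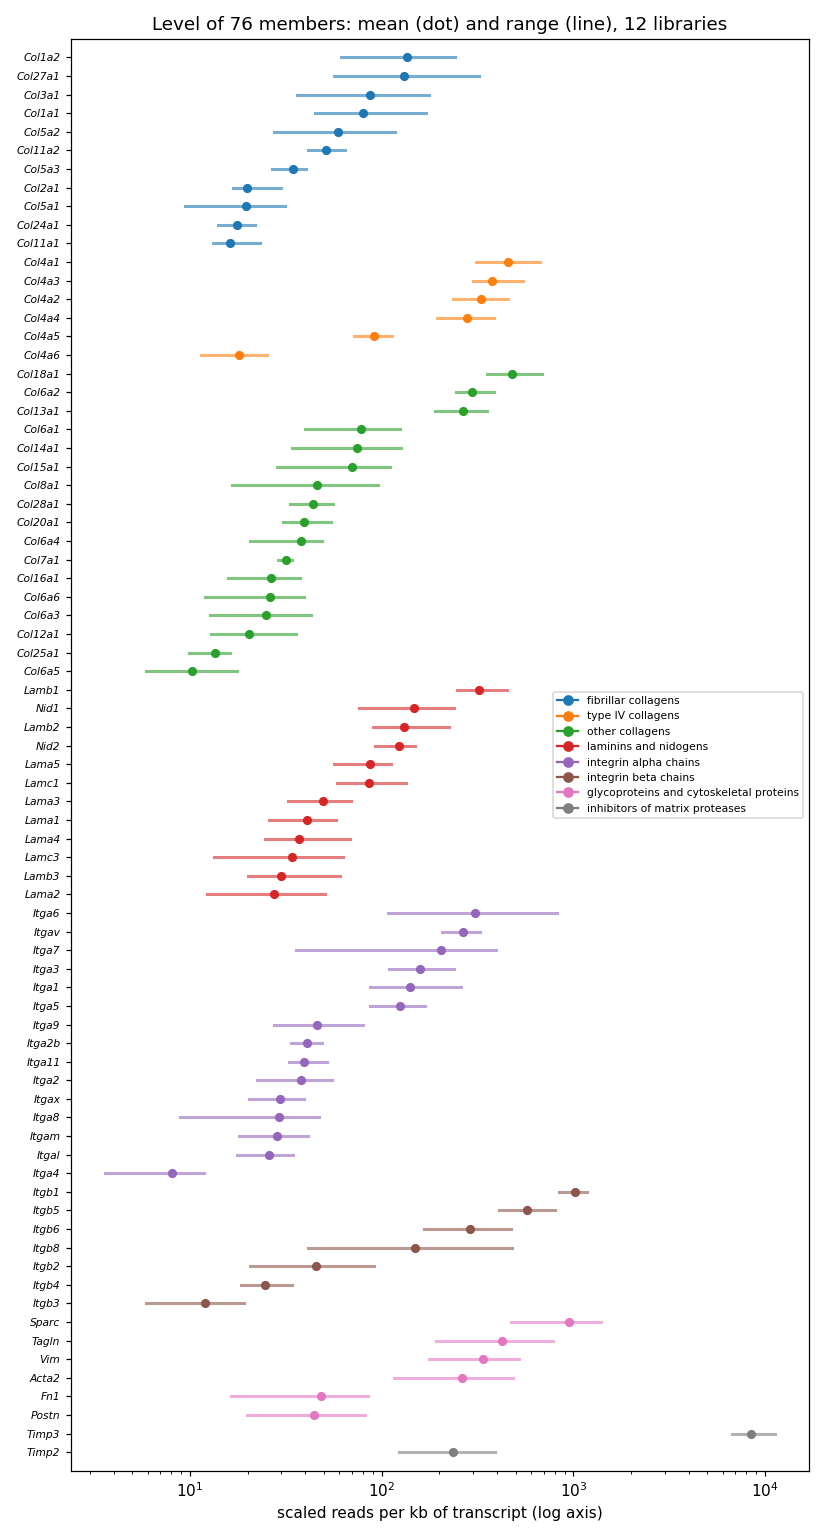
Level of 76 members, grouped by role. The horizontal log axis gives scaled reads per kb of transcript, each dot is the mean over 12 libraries and each line the range over them. Timp3 lies far to the right at 8434 and Itga4 far to the left at 8.08.

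At 12 weeks, 5 of the 77 members were called with the replicate block, all lower in NASH than in control kidneys. They were the integrin alpha chains Itga6 and Itga1, the beta chains Itgb6 and Itgb8, and the type IV collagen chain Col4a4. The 3 largest changes were 2.63-fold lower for Itgb8, 2.51-fold for Itga6 and 1.98-fold for Itgb6. Genes of scar matrix did not pass: Col1a1, Col1a2, Col3a1, Fn1 and Acta2 had log2 changes of 0.00 to 0.47. In bulk cortex, fewer cells of a type and less RNA per cell cannot be told apart.

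With all 12 libraries, these calls rest on the block. Without it, limma with Benjamini-Hochberg adjustment over 11614 genes called 0 of 77 members (background 0.0517% of all genes). An unadjusted p under 0.05 was reached by 6 members and 1684 of all genes. With it, 5 members (6.49%) were called, against a background of 12.9% of all genes, and 13 members and 3580 of all genes had an unadjusted p under 0.05. By direction, the background was 9.85% called lower and 3.01% called higher. The members' share was thus below that of all genes, and the result concerns these 5 genes and not the members as a group. The members' median log2 change was -0.04 and that of all genes -0.08.

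Itgb6 is the chain that pairs with Itgav in epithelia to bind and activate latent TGF-beta. On mm10 the gene lies on chromosome 2 from 60598292 to 60673693, minus strand. It stood at log2 10.30, 9.69 and 10.15 in NASH and 11.01, 10.95 and 11.14 in control libraries at 12 weeks, in the order of replicates 1, 2 and 3. The groups did not overlap, and these controls lay above every other library of the study. The log2 change was -0.98 (SE 0.18 with the block, 0.24 without). The limma adjusted p was 0.0108 with the block and 0.254 without, and ranged from 0.00701 to 0.645 over 35 settings.

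Itgb8 also pairs with Itgav and activates TGF-beta, and its gene lies on chromosome 12 from 119162803 to 119238276, minus strand. It stood at log2 9.03, 6.99 and 7.09 in NASH and 10.54, 8.11 and 8.64 in control libraries. Replicate 1 was high in both groups, so the groups overlapped, yet each NASH library lay below the control library of its number by 1.12 to 1.55. The log2 change was -1.39 (SE 0.27 with the block, 0.74 without). The limma adjusted p was 0.0134 with the block and 0.410 without, and ranged from 0.00637 to 0.864 over 35 settings.

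Itga6, a laminin receptor chain that pairs with Itgb1 or Itgb4, lies on chromosome 2 from 71786939 to 71858427, plus strand. It stood at log2 11.30, 9.41 and 9.30 in NASH and 12.25, 11.07 and 10.67 in control libraries. The groups overlapped through replicate 1, and within each number NASH was lower by 0.95 to 1.66. The log2 change was -1.33 (SE 0.16 with the block, 0.74 without). The limma adjusted p was 0.00334 with the block and 0.428 without, and ranged from 0.00099 to 0.842 over 35 settings.

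Itga1, which pairs with Itgb1 to bind collagens, type IV included, had the smallest change of the 5. Its gene lies on chromosome 13 from 114958081 to 115101964, minus strand. It stood at log2 10.02, 9.02 and 9.29 in NASH and 10.60, 9.50 and 9.47 in control libraries, lower in NASH in all 3 numbers but with overlapping groups. The log2 change was -0.41 (SE 0.12 with the block, 0.43 without). The limma adjusted p was 0.0453 with the block and 0.682 without, and ranged from 0.0388 to 0.992 over 35 settings.

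Other integrin chains, partners of these 4 among them, did not pass in either fit. Itgav had a log2 change of 0.19 (SE 0.10 with the block), Itgb1 0.10 (SE 0.10), Itgb5 -0.19 (SE 0.12) and Itgb4 0.29 (SE 0.21). With the block, the 95% interval of the Itgb1 change ran from -0.13 to 0.33, and that of Itgav from -0.04 to 0.42. Itga8, the mesangial and stromal chain that binds nephronectin, had -0.32 (SE 0.32). Over the 15 alpha chains, log2 changes ran from -1.33 to 0.57 (median -0.27), with 0 called higher and 2 lower with the block. Over the 7 beta chains they ran from -1.39 to 0.29 (median -0.17), with 0 called higher and 2 lower.

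**Figure D2:**
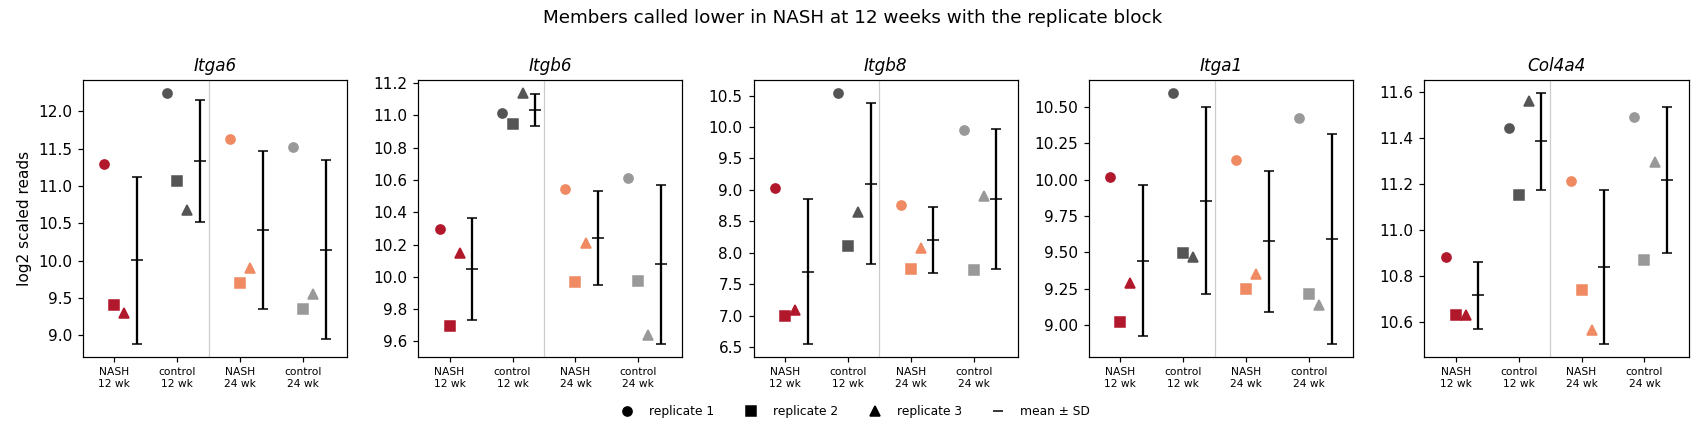
Log2 scaled reads of the 5 members called lower in NASH at 12 weeks with the replicate block, 1 panel per gene with its own vertical axis. Each symbol is a library (circle, replicate 1; square, replicate 2; triangle, replicate 3) and bars are mean ± SD of 3 libraries. Itgb6 controls at 12 weeks (10.95 to 11.14) lie above every other library, while Itga6, Itgb8 and Itga1 are highest in replicate 1 of each group.

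Type IV collagen is the scaffold of basement membranes. The chains of Col4a3, Col4a4 and Col4a5 form the network of the mature glomerular basement membrane, and those of Col4a1 and Col4a2 the network found in most others. Col4a4 (chromosome 1 from 82450723 to 82586849, minus strand) stood at log2 10.88, 10.63 and 10.63 in NASH and 11.44, 11.15 and 11.56 in control libraries at 12 weeks. All 3 NASH libraries lay below all 3 controls. The log2 change was -0.67 (SE 0.14 with the block, 0.20 without). The limma adjusted p was 0.0166 with the block and 0.260 without, and ranged from 0.0140 to 0.645 over 35 settings.

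Its neighbour Col4a3, which starts 71 bases away in the first sequence above, stood at 11.81, 11.34 and 11.47 in NASH and 11.83, 11.64 and 11.91 in control libraries. Its log2 change of -0.26 (SE 0.13 with the block) did not pass (adjusted p = 0.203 with the block, 0.573 without). The difference between the 2 genes was not tested. Col4a1 and Col4a2, which share the second sequence, had log2 changes of 0.09 (SE 0.17 with the block) and 0.07 (SE 0.16). Col4a5 had 0.08 (SE 0.12) and Col4a6 0.16 (SE 0.22). Of the 6 type IV genes, 0 were called higher and 1 lower with the block.

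**Figure D3:**
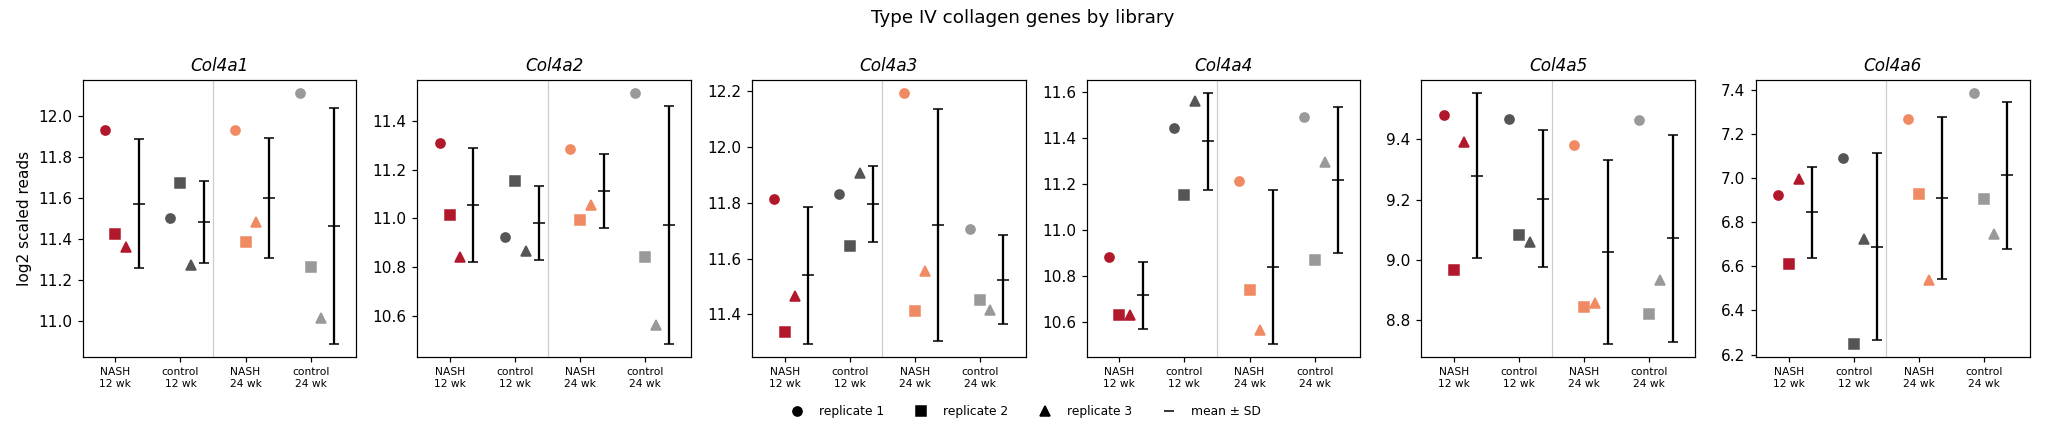
Log2 scaled reads of the 6 type IV collagen genes, 1 panel per gene with its own vertical axis, in 4 groups of 3 libraries. Symbols are libraries by replicate number and bars are mean ± SD. At 12 weeks Col4a4 is lower in all 3 NASH libraries (10.63 to 10.88) than in all 3 controls (11.15 to 11.56), while Col4a3 libraries of the 2 groups overlap.

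The laminin and nidogen genes gave no call, with log2 changes from -0.71 to 0.38 over 13 genes and a median of -0.12. Lama5, the alpha chain of the laminin of mature glomerular and tubular basement membranes, stood at log2 10.06, 9.90 and 9.96 in NASH and 9.32, 9.77 and 9.68 in control libraries. The groups did not overlap, but the log2 change of 0.38 (SE 0.14 with the block) did not pass (adjusted p = 0.0883 with the block, 0.288 without). Lamb2, the beta chain of the same glomerular laminin, had 0.22 (SE 0.21), Lamb1 0.09 (SE 0.17) and Lamc1 -0.11 (SE 0.17), the last with the opposite sign under 1 other scaling. The linkers Nid1 and Nid2 had -0.24 (SE 0.23) and -0.12 (SE 0.20).

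Fibrillar collagens gave no call among 11 genes, with log2 changes from -0.27 to 0.91 and a median of 0.00. Col1a1, a chain of type I collagen, stood at log2 9.42, 8.33 and 8.94 in NASH and 8.29, 8.95 and 8.51 in control libraries. Its groups overlapped, with NASH replicates 2 and 3 inside the range of the controls. With the block the log2 change was 0.32, with a 95% interval from -0.46 to 1.10. Col1a2 had 0.00 (SE 0.35 with the block) and Col3a1, which forms type III collagen, 0.03 (SE 0.50). Col27a1, a fibrillar collagen best known from cartilage, stood at 9.26, 10.16 and 9.73 in NASH and 8.84, 8.75 and 8.81 in control libraries. All 3 NASH libraries lay above all 3 controls, but the log2 change of 0.91 (SE 0.29) did not pass (adjusted p = 0.0625 with the block, 0.364 without).

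The 17 other collagens gave no call, with log2 changes from -0.77 to 0.44 and a median of -0.06. Col13a1, a collagen that spans the cell membrane, stood at 9.71, 9.85 and 9.52 in NASH and 9.14, 9.33 and 9.27 in control libraries. The groups did not overlap, and its log2 change of 0.44 (SE 0.13 with the block) came nearest to the threshold among members that did not pass (adjusted p = 0.0530 with the block, 0.281 without). Col6a4, a chain of type VI collagen, had -0.50 (adjusted p = 0.0911 with the block), and Col14a1, a collagen that binds to the surface of fibrils, -0.77 (0.104).

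Fibronectin, matricellular and myofibroblast genes gave no call at 12 weeks. Fn1, fibronectin, stood at log2 9.4, 8.0 and 8.9 in NASH and 8.3, 9.0 and 7.9 in control libraries, with a log2 change of 0.34 (SE 0.51 with the block). Acta2, smooth muscle actin, had 0.47 (SE 0.40) and Tagln, an actin-binding protein of smooth muscle, 0.48 (SE 0.32). Vim, the intermediate filament of mesenchymal cells, stood at 9.85, 8.99 and 9.32 in NASH and 8.77, 9.09 and 8.33 in control libraries, and its change of 0.65 (SE 0.24) did not pass (adjusted p = 0.0974 with the block). Sparc had 0.19 (SE 0.22) and Postn, periostin of injured tissue, -0.46 (SE 0.35). The ranges of Fn1, Acta2, Tagln, Vim, Sparc and Postn in the 2 groups overlapped at 12 weeks.

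Protease inhibitors were split. Timp3 stood at 15.24, 15.33 and 15.05 in NASH and 15.69, 15.47 and 15.52 in control libraries. All 3 NASH libraries lay below all 3 controls, but the log2 change of -0.35 (SE 0.12 with the block) did not pass (adjusted p = 0.0800 with the block, 0.295 without). Timp2, a soluble inhibitor of the same proteases, had 0.11 (SE 0.30).

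Without any fit, 3 members (Col13a1, Col27a1 and Lama5) were higher in all NASH than in all control libraries at 12 weeks, and 4 (Itgb6, Col4a4, Col6a5 and Timp3) were lower. The background was 8.14% of all genes higher and 14.4% lower, against 3.90% and 5.19% of the members.

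**Figure D4:**
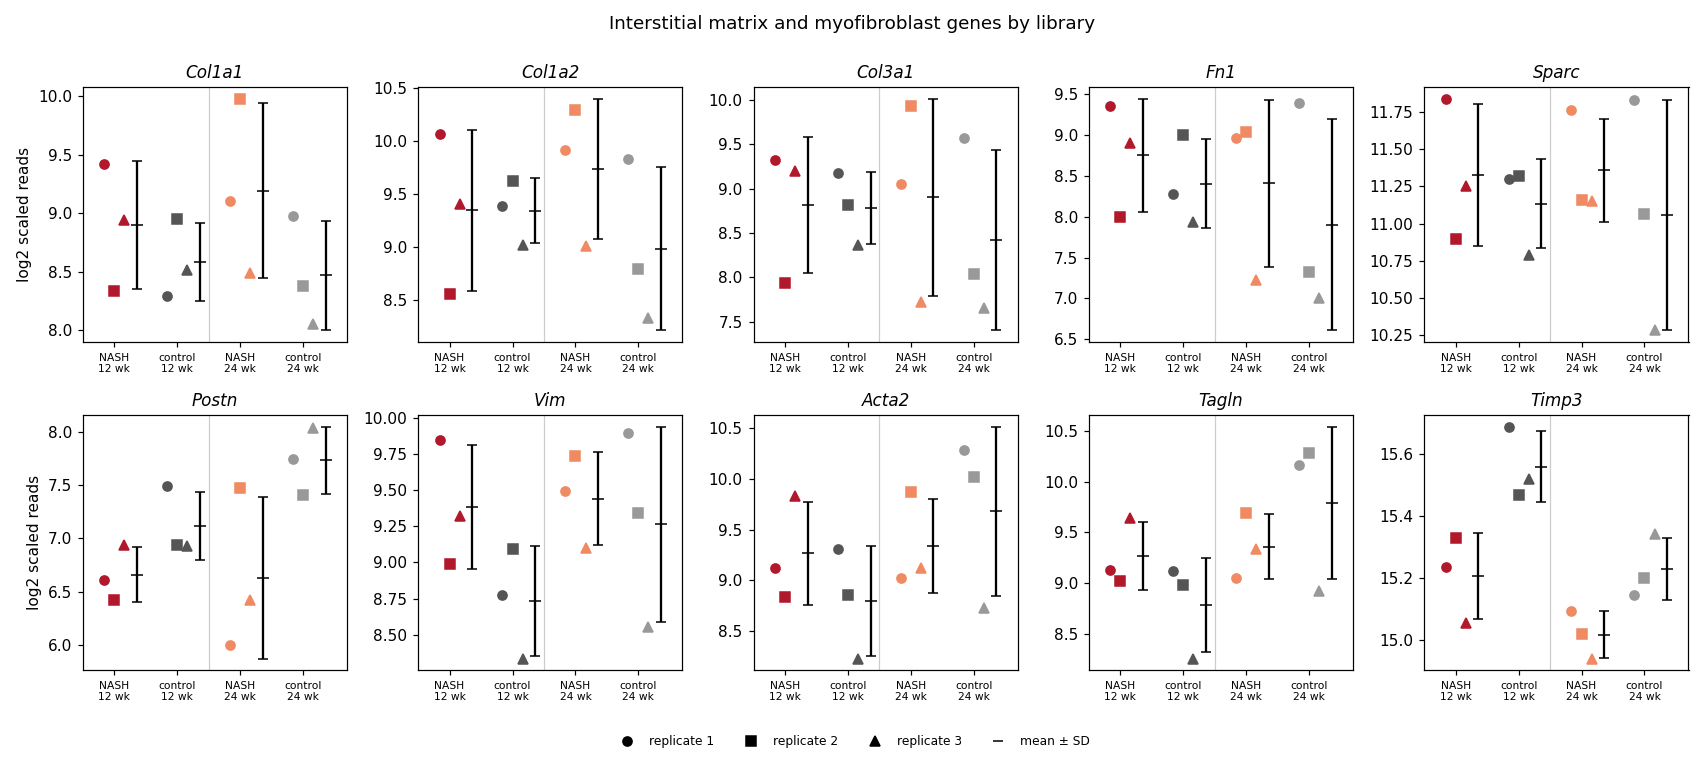
Log2 scaled reads of 10 interstitial matrix, mesenchymal and protease inhibitor genes, 1 panel per gene with its own vertical axis. Symbols are libraries by replicate number and bars are mean ± SD of 3 libraries. At 12 weeks Timp3 is lower in all 3 NASH libraries (15.05 to 15.33) than in all 3 controls (15.47 to 15.69), and the libraries of the other genes overlap.

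Gene length, depth and other measures moved with the 12-week contrast, and the part of each was not tested except where stated. The members' transcripts were long, with a median of 5778 bases against 2893.5 for all genes, and the 1506 genes at least that long had a median log2 change of -0.32. With the trend over length and GC content removed from each library, the blocked fit kept 3 of the 5 calls (background 4.73% of all genes lower): Itga6 at -1.13 (adjusted p = 0.00838), Itgb8 at -1.29 (0.0292) and Itgb6 at -0.82 (0.0346). Col4a4 at -0.45 (0.0744) and Itga1 at -0.17 (0.336) no longer passed. With quantile normalization the blocked fit called 3 members higher (Lama5, Col13a1 and Vim; background 4.58%) and 4 lower (Itga6, Itgb6, Itgb8 and Col4a4; background 6.01%). With median-of-ratios scaling it called 2 higher (Lama5 and Col13a1; background 5.91%) and the same 4 lower (background 5.97%). All genes split into 350 higher and 1144 lower as deposited, 532 and 698 after quantile normalization, and 686 and 693 after median-of-ratios scaling.

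Single libraries also mattered. Over the 12 blocked fits that each left out 1 library, Itga6 and Itgb8 were called in all 12, Itgb6 in 11, Col4a4 in 9 and Itga1 in 4. The count of members called was 5 with all libraries (1494 of all 11614 genes called). It was 2 without control replicate 3 of 12 weeks (253 genes). It was 3 without control replicate 2 (410 genes) or NASH replicate 1 (326 genes) of that time, and 8 without control replicate 1 of that time (679 genes). With replicates 2 and 3 alone and no block, 4 members were called lower (background 2.5%), Itga6, Itgb6, Col4a4 and Col14a1, the last at -1.11.

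Hepatocyte markers (4 of 4 measured, none at 0) summed to 2590 to 6535 scaled reads in NASH and 907 to 1476 in controls at 12 weeks, with no overlap. A list for papilla and medulla (4 of 5 measured, none at 0) held Aqp2, Umod, Slc12a1 and Aqp3. These genes also mark tubule segments within cortex, so their sum does not measure medulla in the samples. This sum was 24419 to 62953 scaled reads in NASH and 19040 to 34781 in controls, with overlap. Endothelial markers (6 of 6, none at 0) summed to 2883 to 6000 in NASH and 4449 to 5964 in controls. Podocyte markers summed to 4707 to 13407 in NASH and 5923 to 11439 in controls, and fibroblast and pericyte markers to 1542 to 3394 and 1829 to 2683. Smooth muscle markers, Acta2 and Tagln among them, summed to 1373 to 2418 and 996 to 1708, and mesangial and juxtaglomerular markers to 1012 to 3329 and 1442 to 2189. All of these overlapped between the groups. Dbp, an output gene of the circadian clock, was at log2 9.87, 10.25 and 10.07 in NASH and 5.01, 5.19 and 3.54 in control libraries, and Npas2, a clock activator, at 6.29, 5.92 and 5.85 in NASH and 8.14, 8.67 and 9.08 in controls. Both clock genes were far apart with no overlap. The part of these markers, of the clock genes and of the lower depth of NASH replicates 2 and 3 in the integrin and Col4a4 values was not tested.

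At 24 weeks, no matrix, basement membrane or integrin gene passed in NASH against control. limma called 0 of 77 members without the block (background 0%) and 0 with it (background 0.00861%). An unadjusted p under 0.05 was reached by 1 member (347 of all genes) without the block and 3 members (1124 of all genes) with it. A p that misses the threshold does not show equal levels. The members' median log2 change was 0.04 and that of all genes 0.01. In 0 members did all NASH libraries lie above all controls, and in 3 (Col8a1, Lamb3 and Timp3) they lay below, against backgrounds of 4.56% and 2.65%.

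Of the members called at 12 weeks, Itga6 stood at log2 11.63, 9.70 and 9.90 in NASH and 11.52, 9.35 and 9.55 in control libraries at 24 weeks. NASH was slightly above control in each number, and the log2 change was 0.27 (SE 0.16 with the block). Itgb6 stood at 10.55, 9.97 and 10.21 in NASH and 10.61, 9.98 and 9.64 in control libraries, with a change of 0.16 (SE 0.18). Itgb8 stood at 8.77, 7.74 and 8.09 in NASH and 9.96, 7.73 and 8.90 in control libraries, with a change of -0.66 (SE 0.27, adjusted p = 0.468 with the block). Itga1 had -0.02 (SE 0.12). Col4a4 stood at 11.21, 10.74 and 10.57 in NASH and 11.49, 10.87 and 11.29 in control libraries. Each NASH library was below the control of its number, with a change of -0.38 (SE 0.14, adjusted p = 0.440 with the block).

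Postn had the smallest p at 24 weeks. It stood at log2 6.00, 7.47 and 6.43 in NASH and 7.75, 7.41 and 8.04 in control libraries. NASH replicate 2 lay inside the range of the controls, and the log2 change of -1.10 (SE 0.35) did not pass (adjusted p = 0.434 with the block). Lamb3, a beta chain of epithelial laminin, had -0.63 (SE 0.30). Itgal, an alpha chain of leukocytes, had 0.43 (SE 0.20 with the block), and Itgb2, its beta partner, 0.66 (SE 0.39).

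Of the scar matrix genes, Col1a1, Col1a2, Col3a1 and Fn1 had positive log2 changes at 24 weeks and Acta2 a negative one, with wide intervals, and none passed. Col1a1 stood at log2 9.11, 9.98 and 8.49 in NASH and 8.97, 8.38 and 8.05 in control libraries. NASH was higher in each number, with a change of 0.72 and a 95% interval with the block from -0.06 to 1.51. Col1a2 had 0.75 (interval -0.03 to 1.54), Col3a1 0.48 (-0.61 to 1.58) and Fn1 0.51 (-0.61 to 1.62). NASH replicate 2 carried the highest values of Col1a1, Col1a2, Col3a1 and Fn1 in its group, and its macrophage markers (6 of 6 measured, none at 0) summed to 3804 scaled reads against 1926 to 2348 in the others of the group. In 24-week controls these markers summed to 959.8 to 2230 scaled reads, overlapping NASH, and each control lay below the NASH library of its number. The part of these markers in the collagen and leukocyte integrin values was not tested. Acta2 had -0.34 (SE 0.40) and Tagln -0.43 (SE 0.32). Adipocyte markers (5 of 5 measured, none at 0) summed to 501 to 1513 scaled reads in NASH and 1509 to 17315 in controls, highest in control replicate 1, and their part was not tested.

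Among other members of the basement membrane, log2 changes at 24 weeks were 0.14 for Col4a1, 0.14 for Col4a2, 0.20 for Col4a3, 0.16 for Lama5, 0.12 for Lamb1 and 0.04 for Lamb2. Nid2 had 0.13 and Nid1 0.01. None of these passed, and over 35 settings Col4a1 ran from -0.09 to 0.46 and Nid1 from -0.37 to 0.46. Col4a5 (-0.04), Lamc1 (0.01) and Itgb1 (0.02) had the opposite sign under at least 1 other scaling. Sparc had 0.30 (SE 0.22 with the block), Vim 0.18 (SE 0.24), Timp2 -0.09 (SE 0.30) and Timp3 -0.21 (SE 0.12). Itgav had 0.13 (SE 0.10) and Itga8 0.50 (SE 0.32). By role, log2 changes at 24 weeks ran from -0.18 to 0.75 in fibrillar collagens, -0.57 to 0.49 in other collagens, -0.63 to 0.18 in laminins and nidogens, -0.31 to 0.50 in alpha chains and -0.66 to 0.66 in beta chains.

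**Figure D5:**
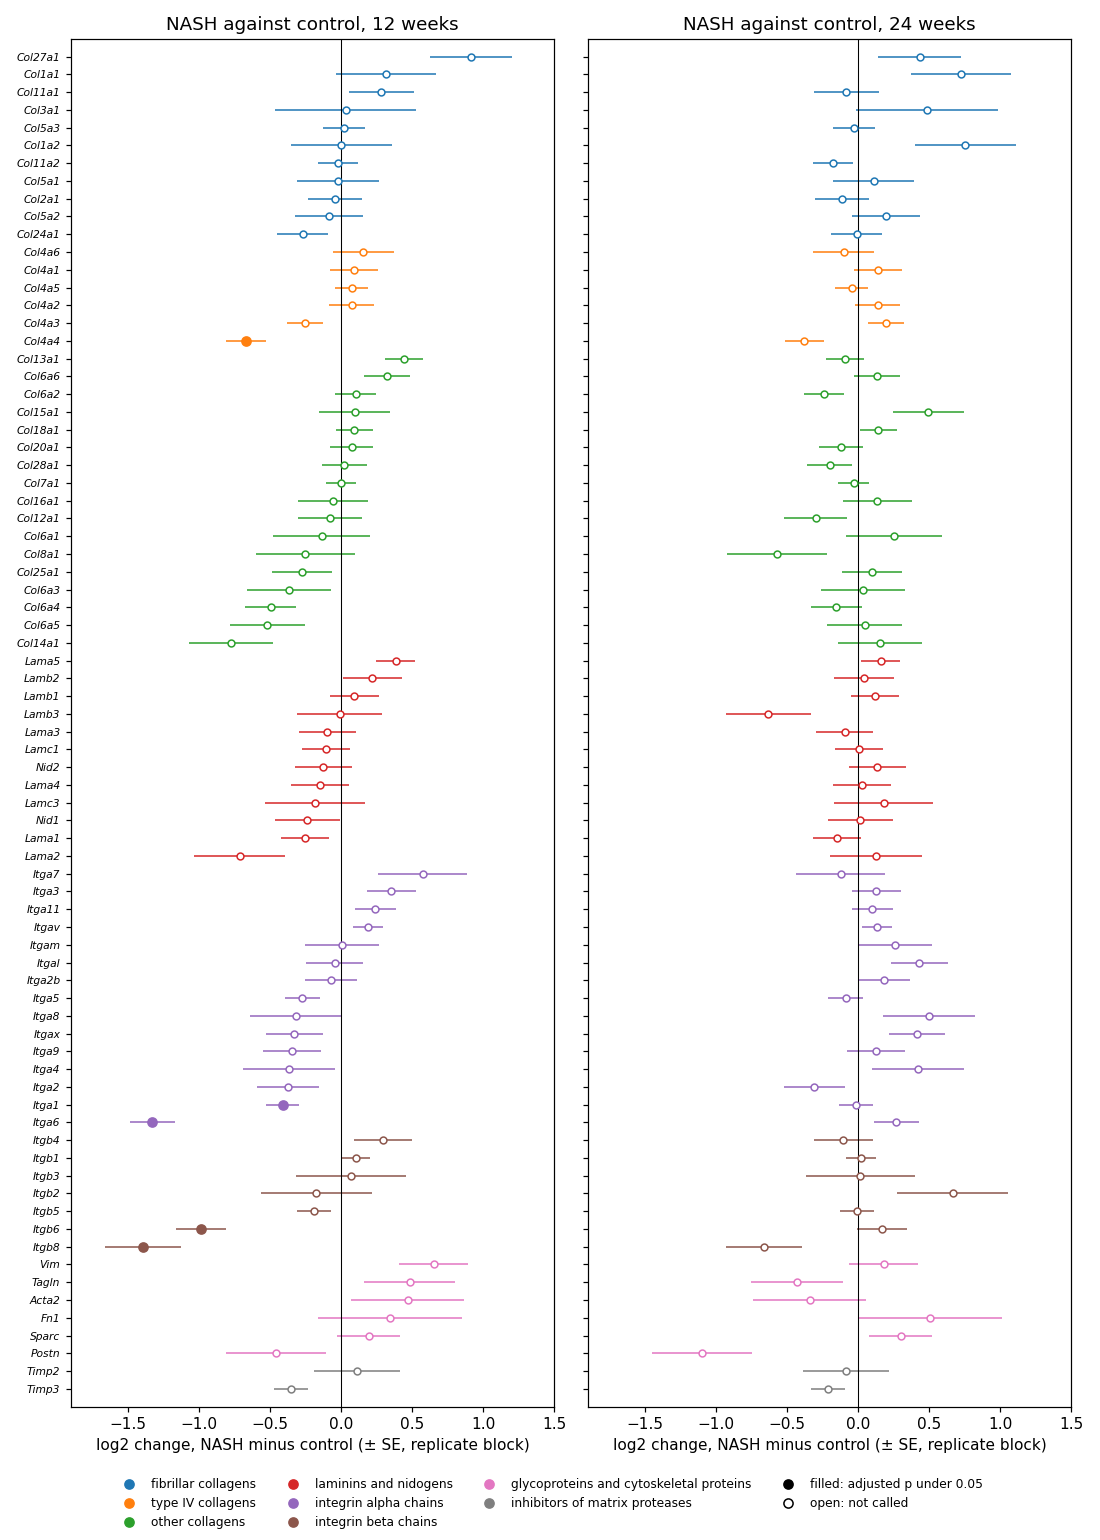
Log2 change of 76 members, NASH minus control, at 12 weeks (left) and 24 weeks (right), with ± 1 SE from the fit with the replicate block. Colours give the role and filled points the members called at an adjusted p under 0.05. At 12 weeks the 5 filled points lie left of 0, from -1.39 (Itgb8) to -0.41 (Itga1), and at 24 weeks no point is filled.

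Whether the NASH effect differed between the times was tested as the difference of the effects, 24 minus 12 weeks. limma called 0 of 77 members without the block (background 0%) and 0 with it (background 0.00861%). At an unadjusted p under 0.05 were 2 and 7 members, against 425 and 1489 of all genes. The nearest was Itga6, with a difference of 1.60 on the log2 scale (SE 0.22 with the block, adjusted p = 0.0739 with it), and the fit without the block did not call it. Itgb6 had 1.15 (SE 0.25 with the block, adjusted p = 0.148). Itga6 passed in 5 of 34 settings, among them the blocked fit after quantile normalization (1.54, adjusted p = 0.0426, background 0.0258% of all genes higher) and replicates 2 and 3 alone (1.87, adjusted p = 0.0114, background 0.431% higher), where Itgb6 passed as well (1.40, adjusted p = 0.0398). Without control replicate 1 of either time, the blocked fit called 1 member, Itga6. Of all genes it called 11 without that of 12 weeks and 29 without that of 24 weeks. Col13a1 had -0.54, Itgax, a leukocyte chain, 0.74, Col4a3 0.45 and Tagln -0.91, and these did not pass in the fits with and without the block. Averaged over both times, the blocked fit called 3 members lower (background 7.36%), Itgb8 at -1.03 (adjusted p = 0.0150), Col4a4 at -0.52 (0.0154) and Itga6 at -0.53 (0.0211). With the length and GC trend removed, the blocked fit called 1, Itgb8 (background 3.13%), and Col4a4 and Itga6 did not pass (adjusted p = 0.0560 and 0.0926). The fit without the block called 0 (background 0%), with 5 members and 1579 of all genes at an unadjusted p under 0.05. Over the 12 blocked fits that left out 1 library, Itgb8 was called in 12, Col4a4 in 11 and Itga6 in 9, and the count ran from 2 to 5, reaching 5 without control replicate 1 of 12 weeks. Postn at -0.78, Timp3 at -0.28, Lama5 at 0.27 and Itgb6 at -0.41 did not pass.

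Between the times, control kidneys at 24 weeks had less Itga6 than at 12 weeks. The log2 change was -1.19 (SE 0.16 with the block, 0.74 without), and it was the only member called with the block (adjusted p = 0.0321, background 0.138% lower). Without the block 0 were called (background 0%, 6 members and 910 of all genes at an unadjusted p under 0.05). With the length and GC trend removed as well, the change was -1.11 and did not pass (adjusted p = 0.0507, 0 members called, background 0.0431% lower). Over the 12 blocked fits that left out 1 library, Itga6 was called in 5. The count was 6 without control replicate 1 of 24 weeks (434 of all genes called) and 4 without control replicate 1 of 12 weeks (68 of all genes). It was 0 without replicate 2 or 3 of either control group, without NASH replicate 3 of 12 weeks and without NASH replicate 2 or 3 of 24 weeks. This contrast shares the 12-week controls with the 12-week NASH contrast. Set side by side, Itga6 was -1.33 in NASH against control at 12 weeks and -1.19 in 24- against 12-week controls, and Itgb6 was -0.98 and -0.96. Within each replicate number the 12-week control had the highest Itga6 of the 4 groups. Itgb6 at 24 weeks (9.64 to 10.61) did not overlap the 12-week controls (10.95 to 11.14), but did not pass (adjusted p = 0.0604 with the block, 0.454 without). Col27a1 at 1.21, Col13a1 at 0.54, Lama5 at 0.42, Tagln at 1.01 and Col8a1 at 1.18 did not pass either. In control mice, 5 members lay higher at 24 weeks in all libraries (background 4.72%) and 3 lower (background 7.38%).

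With replicates 2 and 3 alone, 10 members were called between the control times. Col8a1 (1.71), Col27a1 (1.74) and Col13a1 (0.66) were higher at 24 weeks (background 2.33%), and Itga6 (-1.42), Itgb6 (-1.23), Col14a1 (-1.41), Lama2 (-1.19), Col15a1 (-0.98), Itga8 (-1.45) and Lamc3 (-1.23) were lower (background 4.17%). In NASH mice, 24 against 12 weeks gave 0 calls with the block (background 0.0258%) and 0 without (background 0%). At an unadjusted p under 0.05 were 7 and 1 members, against 1340 and 553 of all genes. Col6a5, a chain of type VI collagen, had the smallest p there with a log2 change of 0.76 (SE 0.26 with the block), followed by Itgal at 0.47, Itgb2 at 0.90, Itgax at 0.44, Col27a1 at 0.73, Col8a1 at 0.86 and Itga6 at 0.41. With replicates 2 and 3 alone, Col8a1 was called higher (1.11, background 2.51%) and Itga7 lower (-0.71, background 2.14%).

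Replicate number separated some members. In 14 of the 77 members the 4 replicate 1 libraries lay above all of replicates 2 and 3 (background 15%), and in 3 below (background 4.21%). Replicate 1 libraries held log2 11.30 to 12.25 of Itga6, and replicates 2 and 3 held 9.30 to 11.07, with the widest gap of means among the 14 (1.80). For Itga8 these ranges were 7.95 to 8.11 and 5.69 to 7.59, and for Col5a2, a chain of type V collagen, 9.08 to 9.61 and 7.51 to 8.42. Others of the 14 were Itgav, Itgb5, Itga5, Itga9, Itga1, Col2a1, Col18a1, Lamc1, Lama4 and Nid1, with gaps of 0.31 to 1.02. The 3 that were lower in replicate 1 were Itga7, a laminin receptor chain best known from muscle, with a range of 7.16 to 8.58 against 9.60 to 10.63, Col6a6, with 6.41 to 6.67 against 7.56 to 8.12, and Itga11, a collagen receptor chain, with a gap of -0.28. The libraries high in Xist were the same replicate 1 libraries, and the labels do not say what the number stands for. Podocyte markers set these libraries apart as well. Their sum never fell below 11439 scaled reads there, while no library of replicates 2 and 3 exceeded 7095. For endothelial markers these bounds lay closer, at 5964 and 5642. Sums of the other measured marker lists overlapped between replicate 1 and the rest. The part of these markers in the member values was not tested.

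Other genes of the same pathways gave calls with the block at 12 weeks, at shares on both sides of the 12.9% of all genes, and 0 at 24 weeks (background 0.00861%). The shares called were 10.0% of proteoglycan and elastic fibre genes, 8.33% of processing genes, 17.4% of TGF-beta genes and 14.3% of focal adhesion genes, and the counts are a description of these genes and not a result about the lists. Without the block, limma called 0 genes of each of 4 further lists at either time (background 0.0517% and 0%). At 12 weeks 1, 3, 3 and 2 of their genes, in the order below, had an unadjusted p under 0.05, against 1684 of all 11614 genes. Of 30 proteoglycan and elastic fibre genes, the block gave 1 higher and 2 lower at 12 weeks: Gpc1, a heparan sulfate proteoglycan, at 1.18, Ntn4, a netrin of basement membranes, at -0.75 and Npnt, nephronectin, the ligand of Itga8, at -0.71. Of 24 processing enzymes and inhibitors, Plod1, which hydroxylates collagen lysines, was higher at 0.31 and Adamts5, which cuts proteoglycans, lower at -0.82.

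Of 23 genes of TGF-beta signalling, 0 were called higher and 4 lower with the block at 12 weeks (9.85% of all genes were lower): Skil, a repressor of SMAD activity, at -0.82, the receptor Tgfbr1 at -0.40, the matricellular gene Cyr61 at -1.12 and the shared signal carrier Smad4 at -0.42. Of 28 other matrix receptors and focal adhesion genes, Tns2, a tensin of podocytes, was higher at 0.52, and Ptk2, the focal adhesion kinase, at -0.63, Vcl, vinculin, at -0.37 and Fermt1, an epithelial kindlin that activates integrins, at -0.59 were lower. With the length and GC trend removed, 2 of the proteoglycan and elastic fibre genes, 0 of the processing genes, 1 of the TGF-beta genes (Cyr61) and 0 of the focal adhesion genes were called, against 5.41% of all genes. The median log2 changes of the 4 lists were -0.01, 0.10, -0.15 and -0.04, against -0.08 for all genes. At 24 weeks, genes of these lists with a low p with the block were Gpc1 at 0.77 and Sdc2 at -0.27, Bmp1 at 0.52 and Serpinh1 at 0.35, Tgfbr3 at -0.34, and Tns3 at -0.25 and Parva at 0.22, which did not pass.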

How the data were processed

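RNA of kidney cortex was measured in 12 libraries, 3 in each of 4 groups. BWA, limma and the build mm10 are named in the submitters' processing notes, without versions or roles. What the authors deposited is 1 log2 value per gene and library, which the file headers call normalized. In the files, 85.4% to 91.5% of values below 60 steps were whole multiples of 1 step per library, within 0.01 steps, and 98.2% to 100% were whole multiples or geometric means of 2, so the values fit read counts, or means of 2, times a factor of the library (1.0 to 1.96). Depth was the scaled total divided by the step.

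The log2 values were fitted as deposited with limma 3.58.1 in R 4.3.3 (4 group means, mean-variance trend, 2-sided moderated tests, Benjamini-Hochberg over 11614 genes, called at an adjusted p under 0.05). The code of the fit without the block was tested on simulated data that held no replicate structure. The fit with the block was not tested in this way. Alternatives were a replicate block, other scalings, no variance trend, a filter (mean log2 of at least 5), removal of length and GC trends, only the compared groups, only replicates 2 and 3, and leaving out each library.

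Deviations from the group means correlated at 0.19 or more in each of the 18 pairs of libraries that share a number, hence the block beside each call, and pairs of replicates 2 with 3 did so too. Named were 26 members by a fixed list, those called (up to 12 per direction) or the 5 with the smallest p per contrast, and of further lists up to 4 called genes. Others were named after their values were seen. One member and 1 listed gene are not reported here by name. The members and lists were chosen with earlier results of these data known.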

Additional observations from a re-analysis of the deposited data

How the results depend on the processing

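With all 12 libraries, calls among the members depended on the replicate block. Without it, limma called 0 members in each of the 6 contrasts as deposited, after quantile or median-of-ratios scaling, without the variance trend, with the filter and, where it could be fitted, with only the compared groups. With the replicate block, members called were 5 at 12 weeks, 0 at 24 weeks, 0 for the difference, 1 between control times, 0 between NASH times and 3 for the average. Of all 11614 genes that fit called 1494 at 12 weeks, 1 at 24 weeks, 1 for the difference, 20 between control times and 3 between NASH times. With the block and the length and GC trend removed, members called were 3 at 12 weeks (628 of all genes), 1 (Itgb8) for the average and 0 elsewhere. With the block and quantile normalization they were 7 at 12 weeks, 1 for the difference, 1 between control times and 5 for the average, and with median-of-ratios scaling 6, 0, 1 and 4. Over all genes, quantile normalization gave 1230 at 12 weeks, 4 for the difference and 32 between control times. Median-of-ratios scaling gave 1379, 1 and 4 genes in these contrasts. With only replicates 2 and 3, members called were 4 at 12 weeks, 2 for the difference, 10 between control times, 2 between NASH times and 1 for the average. With the block added, a choice made after seeing the data, they were 6, 2, 9, 2 and 2. Over all genes, replicates 2 and 3 alone gave 385 at 12 weeks, 73 for the difference, 755 between control times and 541 between NASH times. With the block added these were 632, 91, 800 and 596. At 24 weeks 0 members were called in every setting, against 0 to 25 of all genes.

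Leaving out 1 library each, with and without the block, gave 0 to 8 members at 12 weeks, 0 at 24 weeks, 0 to 1 for the difference, 0 to 6 between control times, 0 between NASH times and 0 to 5 for the average. With the block alone these ranges were 2 to 8 at 12 weeks and 2 to 5 for the average. Over all genes, leaving out 1 library with the block gave 253 to 1533 calls at 12 weeks. With and without the block it gave 0 to 4 at 24 weeks, 0 to 29 for the difference and 0 to 434 between control times. Of 36 changes called in any setting, 1 had the opposite sign in another: Itga7 between NASH times, called with only replicates 2 and 3, was at 0.0035 without NASH replicate 3 of 12 weeks. Of 86 named results, called or not, 34 had the opposite sign in at least 1 setting. Except where a trend or a library was removed, the cause of these shifts was not tested. Depth limits most NASH replicates 2 and 3 of 12 weeks and replicate 3 of 24 weeks, with 7173807 to 8279767 reads.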
